A study of Mus musculus with 20 samples.

Results

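The Setdb1 sites kept at both ages were the peaks of the old Setdb1 list on mouse chromosomes 1 to 19 that shared at least 1 bp with a peak of the young Setdb1 list. They numbered 427 of 13678 old peaks on these chromosomes, or 3.12%, and of 13877 old peaks in all. The members were selected on the positions of the peaks at both ages, so their number, their widths and the bases they share at the 2 ages are given as a description with no test. Setdb1, Kap1 and acetylated H3K14 (H3K14ac) were mapped by ChIP-Seq, in which chromatin bound by an antibody is recovered and sequenced, in livers of wild-type C57BL/6 mice aged 3 months (young) or 21 months (old). Reads of 3 livers per age were merged for Setdb1 and H3K14ac, and of 2 livers per age for Kap1, which left 1 peak list per factor and age. The lists hold positions only, with no height, score or read count, so the depth behind a peak is unknown and variation among animals cannot be shown. Shares carry 95% Wilson intervals, and differences of shares carry 95% Newcombe intervals. Both cover counting error only, neighbouring peaks are not independent, and no difference between ages or between sets of peaks was tested across animals.

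Setdb1 is a methyltransferase that places methyl groups on lysine 9 of histone H3, a mark of silent chromatin. Kap1, which the gene Trim28 encodes, works with it: KRAB zinc finger proteins bind DNA, recruit Kap1, and Kap1 brings Setdb1. The complex is known for silencing retrotransposons, and for its place at clusters of zinc finger genes. H3K14ac is by contrast usually found at active promoters, and the tandem Tudor domain of Setdb1 binds H3 tails that carry methylated lysine 9 together with acetylated lysine 14. At a kept site with Kap1 and H3K14ac peaks over it, peaks of all 3 overlap the same old Setdb1 peak, though not always on the same bases. Of the 13251 old peaks that were not kept, 9 also had a peak in all 4 Kap1 and H3K14ac lists. Genes of liver cells were looked up for H3K14ac peaks within 1 kb of a start site. Of 10 hepatocyte genes, 4 had one in each age. Apoa1, Apoa2 and Apob, which encode apolipoproteins, had one at both ages, Tat only in the young list and Ttr only in the old list, while Alb, Serpina1a, Fgb, Cps1 and Hnf4a had none. Of 8 genes of other liver cells (Ptprc, Cd68, Clec4f, Pecam1, Stab2, Col1a1, Krt19 and Epcam), 0 had one at either age. The share over all genes is not given, and the genes differ in their number of start sites, so these counts do not identify the tissue.

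The kept sites had 2 forms. Most, 374, were exactly 200 bp wide, the minimum and commonest width of a Setdb1 peak, and 53 were wider. The 5 sequences that follow are of kept sites under 300 bp with a peak in all 6 lists, shown with the part of each that the young peak covered. Site91 measured 200 bp and the other 4 were in the wider class. They were chosen for printing after their values were seen and are read from the plus strand of GRCm38 (mm10). Sites are numbered in genome order. Capitals mark the bases that the young Setdb1 peak covered too, and lower case those covered in old liver alone.
site33 (chr2:5379200-5379443): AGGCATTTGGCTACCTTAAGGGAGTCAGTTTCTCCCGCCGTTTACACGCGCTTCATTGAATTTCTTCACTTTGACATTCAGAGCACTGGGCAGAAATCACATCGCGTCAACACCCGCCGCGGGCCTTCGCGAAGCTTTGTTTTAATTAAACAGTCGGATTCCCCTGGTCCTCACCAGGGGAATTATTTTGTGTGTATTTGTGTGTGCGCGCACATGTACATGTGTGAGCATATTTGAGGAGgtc
site421 (chr19:45650022-45650317): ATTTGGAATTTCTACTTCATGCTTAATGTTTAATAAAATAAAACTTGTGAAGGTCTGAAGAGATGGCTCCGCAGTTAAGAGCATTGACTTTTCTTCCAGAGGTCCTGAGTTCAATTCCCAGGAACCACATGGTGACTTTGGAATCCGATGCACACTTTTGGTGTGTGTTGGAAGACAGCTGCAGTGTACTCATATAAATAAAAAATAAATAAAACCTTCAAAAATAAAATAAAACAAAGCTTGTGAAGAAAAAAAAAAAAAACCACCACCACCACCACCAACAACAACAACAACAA
site90 (chr3:106131709-106131951): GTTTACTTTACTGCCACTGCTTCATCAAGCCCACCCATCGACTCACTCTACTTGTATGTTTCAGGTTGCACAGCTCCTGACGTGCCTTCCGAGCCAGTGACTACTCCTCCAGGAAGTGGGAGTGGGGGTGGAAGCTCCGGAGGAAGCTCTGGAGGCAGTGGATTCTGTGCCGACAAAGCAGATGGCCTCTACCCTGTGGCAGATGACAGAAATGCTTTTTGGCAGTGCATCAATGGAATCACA
site91 (chr3:106144128-106144327): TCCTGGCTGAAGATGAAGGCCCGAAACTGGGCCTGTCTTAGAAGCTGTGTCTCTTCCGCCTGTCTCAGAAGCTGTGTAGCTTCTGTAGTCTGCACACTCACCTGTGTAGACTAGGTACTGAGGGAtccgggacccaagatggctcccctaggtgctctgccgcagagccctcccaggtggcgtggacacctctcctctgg
site124 (chr4:145680249-145680520): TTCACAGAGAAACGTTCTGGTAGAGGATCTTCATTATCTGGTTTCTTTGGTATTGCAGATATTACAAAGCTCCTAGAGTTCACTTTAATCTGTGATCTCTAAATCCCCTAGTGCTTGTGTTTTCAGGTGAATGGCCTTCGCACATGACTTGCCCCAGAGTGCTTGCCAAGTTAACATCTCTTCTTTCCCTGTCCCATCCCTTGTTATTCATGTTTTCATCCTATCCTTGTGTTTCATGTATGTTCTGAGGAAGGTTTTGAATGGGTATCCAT

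The first of these lay in an intron of Camk1d, a calcium/calmodulin-dependent kinase gene, and its old Setdb1, young Setdb1, old Kap1 and young Kap1 peaks measured 244, 244, 249 and 252 bp. The starts of those 4 peaks fell within 4 bp and their ends within 7 bp. Site421 lay in an intron of Fbxw4, an F-box protein gene, and its 4 factor peaks measured 296, 310, 304 and 303 bp in the same order. Site90 overlapped an exon of Chia1, which encodes acidic mammalian chitinase. Farther along chromosome 3, site91 lay between Chia1 and the chitinase-like gene Chil3, with 125 of its 200 bases in the young peak. Site124 lay in an intron shared by the zinc finger gene Zfp980 and the lincRNA gene Gm26763, all of its bases were in the young peak too, and 2 further copies of it were found in the genome. At each of these 5 sites both H3K14ac peaks were 500 bp wide, the minimum width of that list, so their edges say nothing of where the acetylated bases ended.

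In 361 pairs the old and the young peak were both 200 bp wide. The bases they shared ranged from 2 to 200, with quartiles of 85.0, 139 and 168 bp. Pairs that shared more than 150 bp numbered 147, or 40.7%, whereas 50 pairs, or 13.9%, shared 50 bp or fewer. In 2 pairs the positions were identical. The overlaps thus lay mostly toward the long end of the range. At the threshold itself, the 2 members least inside it shared 2 bp each, at chr7:47704348-47704547 and chr16:66937070-66937269. The nearest old peaks outside it had 1 bp between them and a young peak, among them chr14:45855482-45855681 and chr8:9857195-9857394. Members that shared 5 bp or fewer numbered 7, and 7 other old peaks had fewer than 5 bp between them and a young peak.

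**Figure D1:**
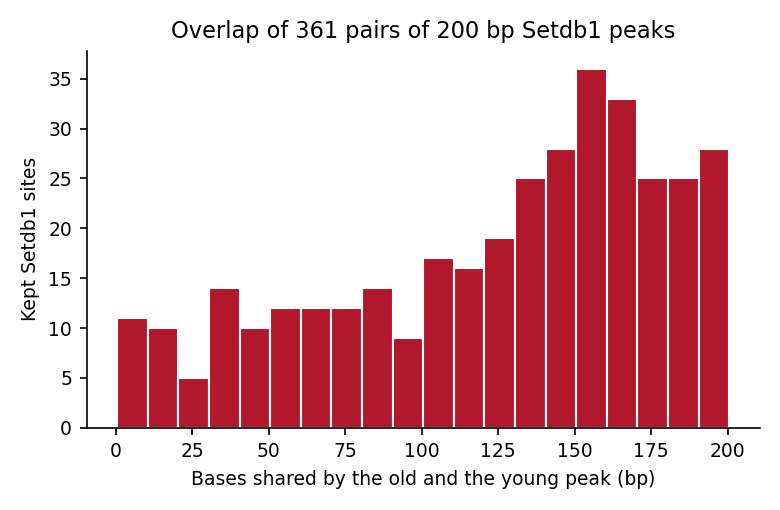
Histogram of the bases (bp, bins of 10 bp) shared by the old and the young Setdb1 peak in 361 kept sites where both measured 200 bp; the bars give numbers of sites. The counts rise above 100 bp, and 147 pairs share more than 150 bp.

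Of the old peaks wider than 200 bp, 53 of 252 were kept (21.0%, 16.5% to 26.5%), against 374 of 13426 old peaks of 200 bp (2.79%, 2.52% to 3.08%). A wider peak has more bases that can be shared, which raises this share by construction. With every Setdb1 peak first set to 200 bp around its midpoint, 411 sites were kept. In 47 sites both peaks were wider than 200 bp, and their median width was 387 bp in old and 534 bp in young liver. The young peak was the wider in 30 of these, the old peak in 13, and they were equally wide in 4. Both edges fell within 10 bp of each other at 11 of the 47.

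Kap1 peaks lay at 51 kept sites in old liver (11.9%, 9.20% to 15.4%) and at 68 in young liver (15.9%, 12.8% to 19.7%). The share over all old Setdb1 peaks tested was 1.82% for old Kap1 and 3.17% for young Kap1. H3K14ac peaks lay at 42 kept sites in old liver (9.84%, 7.36% to 13%) and at 49 in young liver (11.5%, 8.79% to 14.8%), against 1.16% and 1.37% of all old Setdb1 peaks. Each of the 4 shares was thus higher at kept sites than at the rest. Among the 13251 old peaks that were not kept, the shares were 1.49% and 2.75% for old and young Kap1, and 0.875% and 1.04% for old and young H3K14ac. The kept sites exceeded them by 10.4 points (7.70 to 13.9) for old Kap1, 13.2 points (9.99 to 17.0) for young Kap1, 8.96 points (6.48 to 12.2) for old H3K14ac and 10.4 points (7.74 to 13.8) for young H3K14ac. With 200 bp around the midpoint of every peak in place of the peak, the differences were 10.5, 13, 8.98 and 10.4 points in the same order.

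The 53 wide sites carried most of this. Old Kap1 lay at 36 of them (67.9%, 54.5% to 78.9%), young Kap1 at 41 (77.4%, 64.5% to 86.5%), old H3K14ac at 35 (66.0%, 52.6% to 77.3%) and young H3K14ac at 39 (73.6%, 60.4% to 83.6%). Among the 199 wide old peaks that were not kept, the shares were 22.6%, 28.1%, 11.6% and 15.1% in that order. The differences were 45.3 points (30.5 to 57.5), 49.2 points (34.7 to 60.1), 54.5 points (40.1 to 66.4) and 58.5 points (44.2 to 69.4). Widths within this class were not matched, and their median was 355 bp in kept sites and 278 bp in the others. At 29 of the 53 wide sites all 4 Kap1 and H3K14ac lists had a peak (54.7%, 41.5% to 67.3%), against 9 of the 199 (4.52%, 2.40% to 8.37%).

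At the 374 sites of 200 bp, where width is equal, kept sites again had the higher shares, at a much lower level. Young Kap1 lay at 27 (7.22%, 5.01% to 10.3%), old Kap1 at 15 (4.01%, 2.45% to 6.51%), young H3K14ac at 10 (2.67%, 1.46% to 4.85%) and old H3K14ac at 7 (1.87%, 0.910% to 3.81%). The 13052 other old peaks of 200 bp gave 2.37%, 1.17%, 0.827% and 0.713%. The excess was 4.85 points (2.62 to 7.94) for young Kap1, 2.84 points (1.26 to 5.34) for old Kap1, 1.85 points (0.619 to 4.03) for young H3K14ac and 1.16 points (0.184 to 3.10) for old H3K14ac. Of the 374 sites, 333 had neither Kap1 nor H3K14ac at either age (89.0%, 85.5% to 91.8%), against 95.4% of the other old peaks of 200 bp (95% to 95.7%), and 2 had a peak in all 4 lists, against 0 of the 13052. Over all widths, 340 of the 427 kept sites had no partner peak (79.6%, 75.5% to 83.2%), against 94.8% of the other old peaks (94.4% to 95.2%). The lists hold only regions past the authors' threshold.

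**Figure D2:**
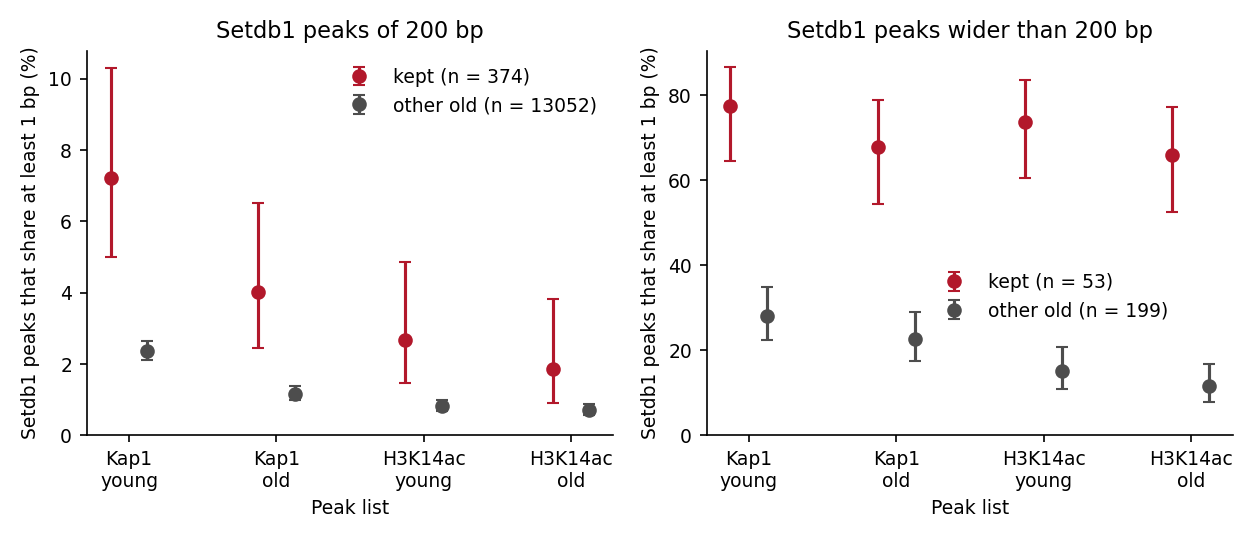
Percentage of Setdb1 peaks that shared at least 1 bp with a peak of each Kap1 and H3K14ac list, for peaks of 200 bp (left) and wider peaks (right). Red points are kept sites, grey points the other old peaks, and bars are 95% Wilson intervals. The right axis reaches far higher, with kept sites between 66.0% and 77.4%.

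Whether Kap1 and H3K14ac lay at the same kept sites at both ages differed with width. Of the 51 kept sites with Kap1 in old liver, 40 had it in young liver too (78.4%), and 28 sites had it in young liver only, so that 58.8% of the young sites had it at both ages. For H3K14ac, 38 of the 42 old sites had a young peak (90.5%), with 11 sites in young liver only and 4 in old liver only, or 77.6% of the young sites at both ages. At the other old Setdb1 peaks the same shares were 60 of 198 for Kap1 (30.3%) and 19 of 116 for H3K14ac (16.4%). Both shares were higher at wide peaks, and kept sites had the higher share within each width, on few sites at 200 bp. At wide kept sites the shares were 33 of 36 for Kap1 (91.7%) and 34 of 35 for H3K14ac (97.1%), against 31 of 45 (68.9%) and 14 of 23 (60.9%) at the other wide peaks. At kept sites of 200 bp most partner peaks were at 1 age only. Kap1 lay at both ages at 7, in young liver only at 20 and in old liver only at 8, and H3K14ac at 4, 6 and 3. As shares of the old sites these were 7 of 15 (46.7%) and 4 of 7 (57.1%), against 29 of 153 (19%) and 5 of 93 (5.38%). The young Kap1 list held 48915 peaks and the old one 22141, while the H3K14ac lists held 19350 and 20463 peaks.

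Seen from the young list, 428 young peaks had an old partner, since 1 kept site overlapped 2 young peaks. They were 0.869% of the 49271 young Setdb1 peaks on these chromosomes (0.790% to 0.955%). Of the young partners, 71 had young Kap1 (16.6%) and 49 had young H3K14ac (11.4%), against 1.96% and 0.895% of the other young peaks. Restricted to young peaks of 200 bp, the excess for young Kap1 was 5.77 points (3.51 to 8.90). For old H3K14ac it was 0.765 points, with an interval of -0.0176 to 2.55 that includes 0.

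Kap1 peaks also lay within reach of more kept sites than of other old peaks. Among the sites of 200 bp, a young Kap1 peak lay within 1 kb of 64 (17.1%) and within 10 kb of 163 (43.6%), against 7.45% and 32.5% of the other old peaks of 200 bp. An old Kap1 peak lay within 10 kb of 28.3%, against 16.7%. The median distance to the nearest young Kap1 peak was 13 kb from kept sites and 22.8 kb from the others, and to the nearest old Kap1 peak 40.8 kb and 63.9 kb. For old H3K14ac the medians were 58.4 kb and 75.8 kb. These distances include the overlapping peaks, at 0 bp, and were not tested.

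**Figure D3:**
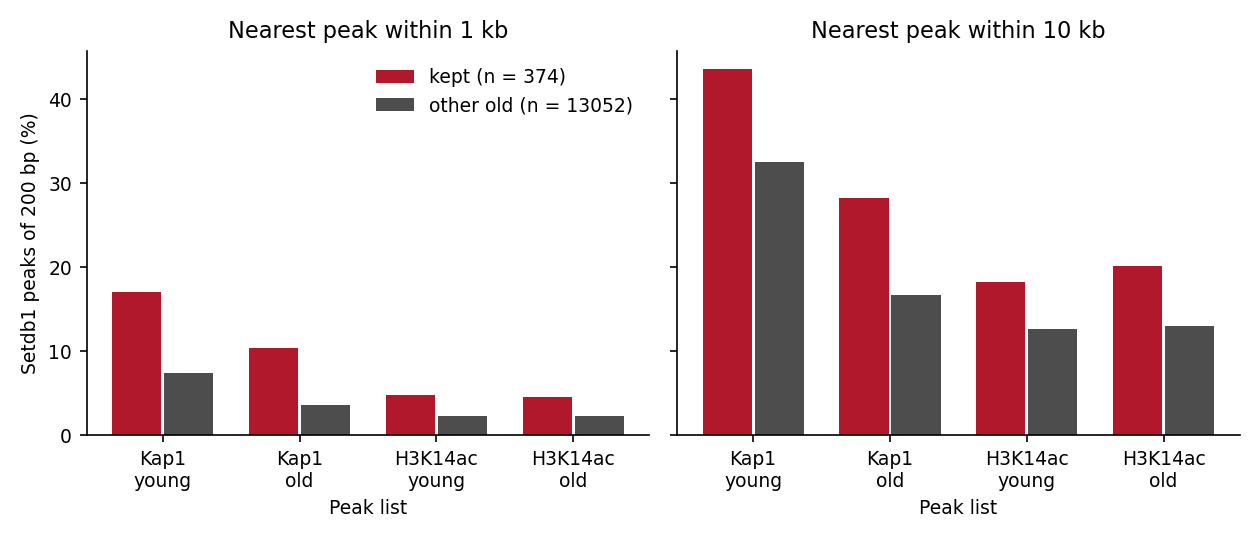
Percentage of Setdb1 peaks of 200 bp whose nearest peak of each list lay within 1 kb (left) or 10 kb (right); bars start at 0, red for 374 kept sites and grey for 13052 other old peaks. The red bar is the taller in each pair, at 43.6% against 32.5% for young Kap1 within 10 kb.

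Kept sites with peaks in all 6 lists numbered 31, of which 29 were wide. The 12 of them with the most bases shared between the ages were site257, site360, site391, site17, site309, site65, site364, site302, site125, site258, site264 and site117. At site360 (chr15:75085428-75087118), between genes, the old Setdb1 peak measured 1691 bp, the young one 1692 bp, the old and young Kap1 peaks 1690 and 1692 bp, and the old and young H3K14ac peaks 1669 and 1674 bp. All 6 starts there fell within 15 bp and all 6 ends within 9 bp. Site30 (chr1:183299060-183299666), described for its edges after they were seen, lay in an intron of Aida, 1654 bp from a start site of that gene, and had widths from 602 to 610 bp in the 6 lists, with starts within 4 bp and ends within 10 bp. Site257 (chr9:124256312-124258137), the widest kept site at 1826 bp, had 6 peaks of 1826 to 1898 bp that ended on the same base. The 6 peaks thus had nearly the same outline at these 3 sites. Sequence found elsewhere, at 90% identity or higher over 100 bp or more, covered 84.2% of site360 in 18893 other alignments, 94.2% of site257 in 73 and 74.1% of site30 in 3, and its part in these outlines was not tested.

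Edges of the 4 Setdb1 and Kap1 peaks lay within 25 bp of each other at both ends at 11 of the 31 sites, and those of all 6 peaks at 2. No H3K14ac peak is narrower than 500 bp, so at sites far narrower than that the 6 outlines could not agree so closely. Site302 (chr13:3372953-3373672) was one of the 11, with Setdb1 peaks of 720 bp at both ages and Kap1 peaks of 727 bp at both ages. So was site399 (chr18:40307977-40308363), in an intron of Kctd16, a subunit of GABA-B receptors, with Setdb1 peaks of 387 bp at both ages and Kap1 peaks of 383 and 384 bp. Site65 (chr2:181917345-181918238) had factor peaks of 890 to 901 bp that ended on the same base. At other sites the outlines differed. In an intron of Trpm8, the gene of a cold-sensing ion channel, site17 (chr1:88300339-88301663) measured 1325 bp in old Setdb1 but 3940 bp in young Setdb1, 3857 bp in old Kap1 and 4508 bp in young Kap1. Site125 (chr4:146535936-146536652), within the zinc finger gene Zfp981, measured 717 and 995 bp in old and young Setdb1, under Kap1 peaks of 4022 and 3967 bp. Site364 (chr16:3240967-3242226), which overlapped 2 young Setdb1 peaks, measured 1260 bp in old Setdb1 and 768 bp in the young peak that shared more of its bases, with Kap1 peaks of 3744 and 3902 bp in old and young liver. Site309 (chr13:12927317-12928582) had Setdb1 peaks of 1266 and 1656 bp and Kap1 peaks of 1586 and 3959 bp in old and young liver.

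**Figure D4:**
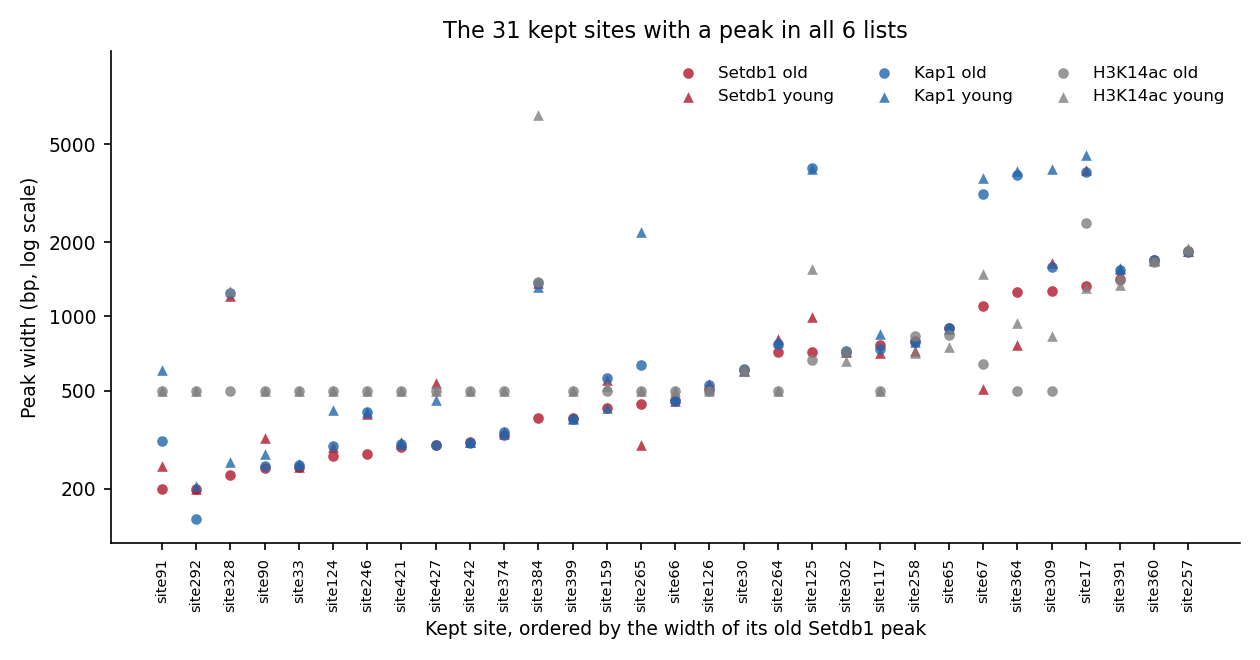
Widths (bp, log scale) of the peaks of all 6 lists at the 31 kept sites that have one in each, ordered by the old Setdb1 width. Colours give the factor, circles old and triangles young liver. Points coincide at sites such as site30, site360 and site257, and the grey points at 500 bp are H3K14ac peaks of minimum width.

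Sequence shared with other places was sought for the sites with peaks in all 6 lists. Aligned to the C57BL/6J assembly, 23 of the 31 had at least 1 other alignment of 100 bp or more at 90% identity or higher, and at 19 such alignments covered more than 50% of the site. The median share covered was 78.2%. Among wide peaks alone, another alignment was found for 21 of the 29 sites in all 6 lists (72.4%, 54.3% to 85.3%), 12 of the other 24 kept sites (31.4% to 68.6%) and 71 of the 199 peaks that were not kept (35.7%, 29.4% to 42.5%). Their median widths were 508, 298 and 278 bp, and a wider peak has more room for such an alignment. Site302 and site258 (chr10:22142322-22143113, in an intron of E030030I06Rik) matched each other over 715 bp at 93.1% identity, and site360 and site391 over 1177 bp at 92.2%. The neighbouring sites at Chia1 differed, as site90 had no such alignment while 99.0% of site91 was covered. Site17 in Trpm8, site125 in Zfp981 and site264 (chr10:57437793-57438507) had none either. The part of read placement between like sequences in these results was not tested.

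A further copy was counted where 90% or more of a site, or of the central 500 bp of a longer one, aligned elsewhere at 95% identity or higher, and 20 of the 427 kept sites had at least 1 (4.68%, 3.05% to 7.12%), against 181 of the 13251 others (1.37%, 1.18% to 1.58%). Among sites of 200 bp it was 12 of 374 (3.21%, 1.84% to 5.52%) against 1.29%, and among wide sites 8 of 53 (15.1%, 7.85% to 27.1%) against 6.53%. Site117 (chr4:118548010-118548772), 4281 bp from a start site of Tmem125, had 8. Copies were sought in assembled sequence only, so any that the assembly lacks were not counted. The site with the most was site238, near the start of the assembled part of chromosome 9 and 433 bp from a start site of Gm10720, with 43. It matched site58 (chr2:98666179-98667427), which covers a start site of Gm10800, over 195 bp at 93.8% identity, and site292, in an intron of the adhesion protein gene Mdga2, over 174 bp at 83.3%. Site58 had Kap1 in old liver and H3K14ac at both ages, site292 had peaks in all 4 lists, and site238 had young Kap1 alone. The number of copies depended on the identity asked for, as site58 had 1 at 95% and 95 at 90%. The bases of the 2 short members are shown because they share sequence between chromosomes, again from the plus strand with the young peak in capitals.
site238 (chr9:3016088-3016287): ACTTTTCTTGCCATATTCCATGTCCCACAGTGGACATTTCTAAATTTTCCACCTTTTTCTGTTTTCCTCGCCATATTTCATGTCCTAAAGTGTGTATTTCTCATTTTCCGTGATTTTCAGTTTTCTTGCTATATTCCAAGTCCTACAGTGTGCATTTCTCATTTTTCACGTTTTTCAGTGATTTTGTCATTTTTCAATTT
site292 (chr12:67059337-67059536): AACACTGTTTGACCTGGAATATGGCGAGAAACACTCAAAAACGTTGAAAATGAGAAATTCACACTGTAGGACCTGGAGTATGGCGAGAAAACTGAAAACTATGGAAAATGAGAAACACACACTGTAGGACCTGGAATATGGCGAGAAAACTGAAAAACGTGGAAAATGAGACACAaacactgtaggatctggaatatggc

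Groups of kept sites that matched each other were sought with blastn, joining sites whose alignment had 80% identity or more over 50% or more of the shorter site. In all, 48 kept sites fell into 14 such groups, with no like count of the other old peaks to set beside them. The largest held 14 sites of 200 bp on several chromosomes, with pairwise identities of up to 86.2%, and the next held 6 sites, of which 1 was wide. The closest pair of the largest group, site95 and site175, matched over 152 bp at 86.2% identity.
site95 (chr3:111297556-111297755): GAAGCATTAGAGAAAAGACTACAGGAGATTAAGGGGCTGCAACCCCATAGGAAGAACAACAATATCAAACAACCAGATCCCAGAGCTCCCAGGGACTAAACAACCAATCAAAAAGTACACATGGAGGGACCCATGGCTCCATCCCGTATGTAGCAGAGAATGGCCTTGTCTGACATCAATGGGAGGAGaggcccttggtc
site175 (chr6:75273151-75273350): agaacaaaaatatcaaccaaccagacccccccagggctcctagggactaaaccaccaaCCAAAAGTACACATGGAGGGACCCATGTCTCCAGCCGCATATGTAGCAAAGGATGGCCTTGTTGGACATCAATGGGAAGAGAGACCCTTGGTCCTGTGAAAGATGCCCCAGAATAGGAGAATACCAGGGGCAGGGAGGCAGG
Both held ATTGAT, and neither had a Kap1 or H3K14ac peak at either age. Repeats that the reference marks by soft-masking made up a median of 14.5% of the bases of the kept sites of 200 bp (12% to 20%) and 14% of the other old peaks of that width (13.5% to 14.5%). More than 50% of bases were masked at 24.6% of the former (20.5% to 29.2%) and at 19.8% of the latter (19.2% to 20.5%). In wide sites the median was 41.8% (19.1% to 50.1%), against 23.9% (19.6% to 28.8%) in the wide peaks that were not kept. Short tandem runs, of a unit of 1 to 6 bases repeated over 12 bp or more, were in 30 of the 53 wide sites (56.6%, 43.3% to 69.0%), against 33.2% of the other wide peaks (27.0% to 40.0%), and in 18.4% and 19.5% of the narrow ones. Widths of the wide peaks were not matched, with medians of 355 bp in kept sites and 278 bp in the others. A wider peak has more room for such a run. The repeat families were not analysed here.

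Kept sites of 200 bp were somewhat richer in G and C than the others, while the medians of wide peaks lay close together. In the former the median GC content was 46.5% (45.5% to 47.0%, binomial interval of the median) and 44.5% in the other old peaks of that width (44.5% to 45.0%). In windows of 500 bp the medians were 44.3% and 43.0%. In wide sites the medians were 45.0% (43.1% to 48.8%) and 44.9% (43.9% to 46.3%). The median ratio of observed to expected CpG was 0.119 and 0.130 in peaks of 200 bp, and 0.171 (0.120 to 0.233) and 0.125 (0.102 to 0.149) in wide peaks. In all, 4 short sequences were sought on both strands of the peaks of 200 bp. ATTGAT, the core of the Onecut1 (Hnf6) site, was in 32 of 374 kept sites (8.56%) and in 9.25% of the others, a difference of -0.691 points (-3.17 to 2.62). TGCCGC, the core bound by Zfp57, a KRAB zinc finger protein of imprinted loci, was in 3 (0.802%) against 1.56%, and one of the 3 was site91. The E-box CACGTG was in 7 (1.87%) against 2.11%, and CG in 281 (75.1%) against 71.4%. For each of the 4 the interval of the difference included 0. Of 2080 words of 6 bases, counted with their reverse complements, those with the highest excess in kept sites were GGAGGA (26.7% against 17.7%), CAGACA (26.2% against 18.4%) and CCTGAG (25.1% against 17.7%). Those with the largest deficit were AATAAA (13.9% against 21.6%), AGAAAA (22.2% against 29.7%) and AAAAAT (15.0% against 22.2%). These words were ranked by the difference itself, so they are a description, and the GC content moved with them.

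By position, 24 kept sites lay within 1 kb of a transcript start (5.62%, 3.81% to 8.23%), 23 in exons, 143 in introns and 237 between genes (55.5%, 50.8% to 60.1%). The other old peaks gave 4.35% (4.01% to 4.71%) near starts and 54.2% (53.3% to 55.0%) between genes. The median distance to a start site was 17.7 kb, against 22.5 kb. Starts of protein-coding genes accounted for 13 sites, or 3.04% (1.79% to 5.14%) against 1.81% (1.60% to 2.05%). Among these genes were Gm10800, the zinc finger gene Zscan25, the bitter taste receptor gene Tas2r125, the pheromone receptor gene Vmn1r70, the odorant receptor genes Olfr568 and Olfr1495, the metalloprotease gene Adamts18, Gm10720, the interferon-inducible gene Ifi27l2a, Nrsn1, the urea transporter gene Slc14a2 and the myelin gene Mbp. Adamts18 and Gm10800 were overlapped at the start itself. Of the 13, 10 had neither Kap1 nor H3K14ac at either age, Vmn1r70 and Gm10720 had 1 of the 4 lists and Gm10800 had 3. The sites at Gm10720 and Gm10800 were site238 and site58, which match each other and have further copies. Of all 24 sites near starts, 19 had neither (79.2%, 59.5% to 90.8%), close to the 79.6% of all kept sites, and 92.5% of the other old peaks near starts had neither (90.1% to 94.4%). The site near Nrsn1, a gene of neurons, is shown as the one among the 13 at coding starts with the most shared bases that overlapped no UTR and had no further copy. It lay 313 bp from the start, shared 172 bp between the ages and held ATTGAT.
site314 (chr13:25262999-25263198): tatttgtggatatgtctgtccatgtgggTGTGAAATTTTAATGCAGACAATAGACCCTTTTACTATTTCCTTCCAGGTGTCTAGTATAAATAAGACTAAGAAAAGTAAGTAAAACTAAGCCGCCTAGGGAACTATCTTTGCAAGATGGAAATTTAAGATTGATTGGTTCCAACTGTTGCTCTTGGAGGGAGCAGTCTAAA

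The gene lists had few kept sites. Within 10 kb of a zinc finger gene lay 8 (1.87%, 0.952% to 3.65%), against 0.890% of the other old peaks (0.744% to 1.07%). These were near Zfp980, Zfp981, Zfp979, Zscan25, Zscan4a, Zfp607a, Zfp866 and Zbtb38. The sites at Zfp980 and Zfp981 had peaks in all 6 lists, the site near Zfp979 (chr4:147605456-147605655) had Kap1 at both ages and no H3K14ac, and the other 5 had neither. Odorant receptor genes had 9 (2.11%, 1.11% to 3.96%, against 1.71%), each of 200 bp and each without Kap1 or H3K14ac, as were 89.0% of all kept sites of 200 bp. Vomeronasal receptor genes had 7 (1.64%, 0.796% to 3.34%, against 0.906%), of which 5 had at least 1 peak of the 4 lists, against 87 of the 427 kept sites in all (20.4%), a comparison not tested on so few. Protocadherin, cytochrome P450, Ugt, apolipoprotein and Serpina genes, 22 imprinted genes and a list of 21 genes of nuclear receptors and their partners had 0 of 427 each, with a Wilson upper bound of 0.892%. The other old peaks gave between 0.00755% and 0.241% for these lists, all below that bound, so a lower share at kept sites could not have been seen. That list did not hold every nuclear receptor gene. Outside it, site31 (chr1:188165557-188165756) lay in an intron of Esrrg and site250 (chr9:68989053-68989252) in an intron of Rora, both genes of orphan nuclear receptors, and neither site had Kap1 or H3K14ac at either age.

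Some kept sites lay close together. On chromosome 3, 5 sites spanned 103 kb from chr3:106131709 to chr3:106234875, along Chia1 and Chil3 toward Chil4. Besides site90 and site91, which were in all 6 lists, site92 (251 bp, 3529 bp from a start site of Chil3) had Kap1 at both ages, and site93 (200 bp) had Kap1 and H3K14ac in old liver only. The nearest young peaks lay 121 bp (Kap1) and 985 bp (H3K14ac) from site93. The last of the group, site94 (chr3:106234676-106234875), overlapped neither at either age, but peaks of both lay close by. Its nearest young and old Kap1 peaks were 25 and 31 bp away, and its nearest young and old H3K14ac peaks 99 and 725 bp. On chromosome 13, 4 sites spanned 121 kb near Prl2c3, a gene of the prolactin family, and 3 of them were wide. On chromosome 16, 4 sites lay within 35.6 kb, among them site366 (1435 bp), one of the 5 widest with site257, site360, site391 and site17. On chromosome 2, 3 wide sites, all in the 6 lists, spanned 85.5 kb by Gm14496. Counting sites within 10 kb of each other once left 422 loci.

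Chromosome 2 held the most kept sites, 35, and chromosome 19 the most per length, 18 or 0.293 per Mb. By share of its old peaks, chromosome 19 kept 5.26% (3.35% to 8.17%) and chromosome 11 the least, 1.57% (0.762% to 3.20%). Young peaks, which a kept site needs, were also denser on chromosome 19, with 1911 on 61.4 Mb, than on chromosome 11, with 1771 on 122 Mb, and the part of this density in the shares was not tested. Within 500 kb of the first assembled base of their chromosome lay 11 kept sites (2.58%, 1.44% to 4.55%), on chromosomes 4, 6, 9, 13, 16 and 18, against 0.423% of the others (0.326% to 0.548%). Of these, 8 were wide. This window was chosen after the positions were seen. Without the 11 sites, the shares with old Kap1 and old H3K14ac were 10.3% and 8.89%.

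**Figure D5:**
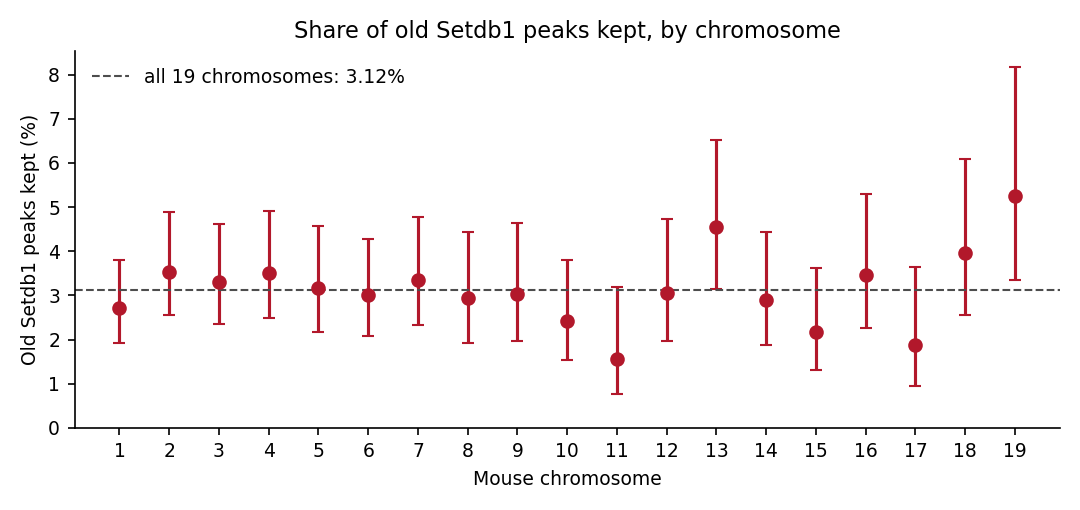
Percentage of the old Setdb1 peaks of each mouse chromosome that were kept, with 95% Wilson intervals; the dashed line is the 3.12% of all 19. Points run from 1.57% on chromosome 11 to 5.26% on chromosome 19.

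Of the 53 wide sites, 7 had no Kap1 or H3K14ac peak at either age (13.2%, 6.55% to 24.8%), against 116 of the 199 other wide peaks (58.3%, 51.3% to 64.9%). They measured 211 to 380 bp, and 4 of them had young partners of 200 bp. The widest, site199 (chr7:41463962-41464341), lay in an intron of Gm20449, and site198 (chr7:38125860-38126151), of 292 bp, lay 18.3 kb from a start site of Ccne1, the cyclin E1 gene. All but site199 were narrower than the median of the wide sites, 355 bp.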

How the data were processed

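The deposited files were 6 peak lists of positions alone. Per the study's methods, the authors aligned reads to mm10 with BWA, removed duplicates, retained reads with a unique alignment, pooled those of each age and ran PeakSeq against input; the deposited positions carry no other measure. Separate legends in the study give 2 merged replicates for H3K14ac and for Setdb1, the methods and labels 3. Starts were read as counted from 0. Overlaps of at least 1 bp, positions (GENCODE), bases (RefSeq GRCm38, primary assembly), copies (minimap2 2.31) and matching sites (blastn 2.17.0) were computed in Python 3.11.15, and the code was tested on simulated peaks. The rule named the 12 sites in all 6 lists with the most shared bases, the 5 widest, coding starts, listed genes and the leading chromosomes; other named sites were chosen after their values were seen. The members and lists were chosen with earlier results of these data known. Alternatives varied the overlap, gap, width, chromosomes, copies and windows. ReChIP samples and peaks on X and Y were not used in the main values. An item that falls under the naming rule is not reported here.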

Additional observations from a re-analysis of the deposited data

How the results depend on the processing

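Of 84 values of 8 results under alternatives, 67 stayed within the interval of the value given above, or within a factor of 1.5 for the count, and 17 moved. A gap of up to 500 bp between the old and the young peak gave 801 kept sites, of which 7.87% had old Kap1, 10.9% young Kap1, 6.12% old H3K14ac and 7.12% young H3K14ac. Sites of 200 bp with a young partner of 200 bp gave 3.32%, 6.65%, 1.39% and 2.22% in that order, and 3.05% with a further copy. A gap of up to 500 bp to the Kap1 peak gave 15.5% in old and 21.3% in young liver. Start sites gave 21.1% within 5 kb, and 3.04% for protein-coding genes alone. Further copies gave 9.13% at 90% identity, and 0 by construction once sites with a copy were left out. The median GC content was 44.6% in windows of 500 bp. The other counts ran from 301, where 50% of both peaks had to be shared, to 431 with chromosomes X and Y. Leaving out sites within 500 kb of the first assembled base, chosen after seeing the data, gave 416. No paired analysis was possible because each list merges the livers of an age, which also means that no liver could be left out. No stricter peak threshold could be tried, since the lists hold no scores, and their depth is unknown.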
